A study of Mus musculus with 2 samples.

Results

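In a mouse with *Tet2* and *Tet3* floxed and Cre expressed from *Foxp3*, many T cells outside the CD8 lineage carried RNA of *Dscam*, *Penk* or *Hapln1*. The members described here were chosen by a sum of at least 3 unique molecular identifiers (UMIs, 1 per captured RNA molecule) of these 3 genes in DKO-severe cells that had a UMI of a *Cd3* gene and none of *Cd8a* or *Cd8b1*. They were 1093 of the 4184 DKO-severe Cd3-positive Cd8-negative cells (26.1%, exact 95% binomial interval 24.8 to 27.5). In the WT mouse 29 of 3256 such cells met the same rule (0.891%, 0.597 to 1.28), so 1122 of the 13772 cells kept from both mice carried the program. Because the program chose the cells, its levels and this contrast between genotypes describe the selection, and the intervals here and elsewhere cover counting error only.

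Single-cell RNA sequencing with hashtag antibodies was performed on TCRβ-positive cells of mice aged 14 weeks, for which the spleen had been pooled with inguinal and cervical nodes. The WT mouse was Foxp3Cre. The DKO-severe mouse was Foxp3-Cre Tet2/3 fl/fl and was picked from its genotype by its raised leukocyte numbers. Both mice carried Cre under control of the *Foxp3* locus, which the study describes as leaky. In the DKO-severe mouse cells other than Tregs can therefore also have lost TET2 and TET3. In the study's fate mapping, nearly all FOXP3-negative T follicular helper cells of DKO-severe mice carried the Cre reporter. The study read them as cells that came from Tregs. There was 1 mouse per genotype, with no replicate check on any difference, and animal, genotype and disease severity cannot be told apart. The kept cells numbered 7007 for WT and 6765 for DKO-severe, with median depths of 5626 and 7975 UMIs before filtering. Members were deeper, at a median of 10961 UMIs and 3412 genes. Shares of cells are therefore given after each cell was thinned to 4900 UMIs, which 1045 of the 1093 members reached, while levels are pooled UMIs per 1000000 (CPM). No barcode was shared by the deposited WT and DKO-severe matrices and all 1093 members had more UMIs of Hashtag 2 than of the other hashtag. In these bulk-summed populations fewer cells that express a gene and less RNA per cell cannot be told apart from CPM alone.

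FOXP3 is the transcription factor that defines regulatory T (Treg) cells, which hold back self-reactive T cells and usually carry high CD25 (*Il2ra*), CTLA-4, GITR (*Tnfrsf18*) and Helios (*Ikzf2*). TET enzymes oxidize 5-methylcytosine in CpG dinucleotides, the first step of DNA demethylation, and in Treg cells this step is known for keeping enhancers of *Foxp3* demethylated and its expression stable. *Penk* encodes proenkephalin, the precursor of opioid peptides, and is also known from Tregs in tissues. *Dscam* encodes a homophilic adhesion receptor of the immunoglobulin superfamily known from neurons, and *Hapln1* encodes a secreted link protein that fastens proteoglycans to hyaluronan.

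In the mm10 annotation *Penk* lies on the minus strand at chr4:4133531-4138819, *Dscam* on the minus strand at chr16:96590840-97170752 and *Hapln1* on the plus strand at chr13:89539796-89611652. The promoters of *Dscam* and *Hapln1* are shown because TET enzymes act on CpG dinucleotides, which are in capitals, and the number of CpG dinucleotides differs strongly between both windows. Each window runs from 250 bases before to 50 after the RefSeq start of transcription (GRCm38.p6), read 5′ to 3′ on the gene's own strand. The windows are chr16:97170686-97170985 for *Dscam* and chr13:89540386-89540685 for *Hapln1*. The *Hapln1* span given above starts before its window, so that window lies within the annotated gene and covers the RefSeq start only.
Dscam: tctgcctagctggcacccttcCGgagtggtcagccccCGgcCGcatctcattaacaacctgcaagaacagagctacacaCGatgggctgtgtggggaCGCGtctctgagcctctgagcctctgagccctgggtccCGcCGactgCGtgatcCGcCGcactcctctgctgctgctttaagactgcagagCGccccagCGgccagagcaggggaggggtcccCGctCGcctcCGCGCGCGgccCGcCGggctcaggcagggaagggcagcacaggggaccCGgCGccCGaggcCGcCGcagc
Hapln1: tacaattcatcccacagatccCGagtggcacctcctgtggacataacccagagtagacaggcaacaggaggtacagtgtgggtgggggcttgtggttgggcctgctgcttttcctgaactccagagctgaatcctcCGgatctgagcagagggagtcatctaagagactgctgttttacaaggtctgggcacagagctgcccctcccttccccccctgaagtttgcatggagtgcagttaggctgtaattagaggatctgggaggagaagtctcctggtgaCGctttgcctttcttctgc
The *Dscam* window held 26 CpG dinucleotides, a number that 16.9% of the 32851 RefSeq promoter windows of that length reached. The *Hapln1* window held 3, a number reached by 76.7% of the windows, whose median was 7. The letters TGANTCA, bound by AP-1 factors, and GTAAACA, bound by forkhead factors, were searched on both strands and were in neither window, while 7.81% and 3.65% of all windows held them. DNA methylation was not measured in these cells.

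Most members met the rule through *Penk* alone. *Penk* was found in 1049 of the 1093 members (96.0%, 1479 CPM), *Dscam* in 324 (29.6%, 152 CPM) and *Hapln1* in 246 (22.5%, 112 CPM). The sum of the 3 genes had a median of 15 UMIs per cell. *Penk* without either other gene was carried by 602 members (55.1%), *Dscam* with *Penk* by 228, *Penk* with *Hapln1* by 143 and all 3 genes by 76. A further 24 members carried *Hapln1* alone, 17 *Dscam* alone and 3 *Dscam* with *Hapln1*. *Dscam* and *Hapln1* UMIs were concentrated in few cells, since the 10% of members with the most held 75.4% of all *Dscam* and 82.8% of all *Hapln1* UMIs but 38.0% of *Penk* UMIs. At equal depth *Hapln1* was in 14.8% of the 230 members with *Dscam* (10.5 to 20.04) and in 17.8% of the 815 without it (15.2 to 20.6). Across the 1045 members at that depth Spearman's rho was 0.06 for *Dscam* with *Penk*, -0.12 for *Hapln1* with *Penk* and -0.03 for *Dscam* with *Hapln1*, as a description of sparse counts from 1 library. The rule on the sum of the 3 genes lowers such values, because a member low in one gene had to be high in another. *Foxp3* was compared on both sides of the threshold. The 127 DKO-severe cells with a sum of 2, just outside, had a *Foxp3* UMI in 19.7% of cells, and the 81 with a sum of 3, just inside, in 25.9%, before thinning.

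**Figure D1:**
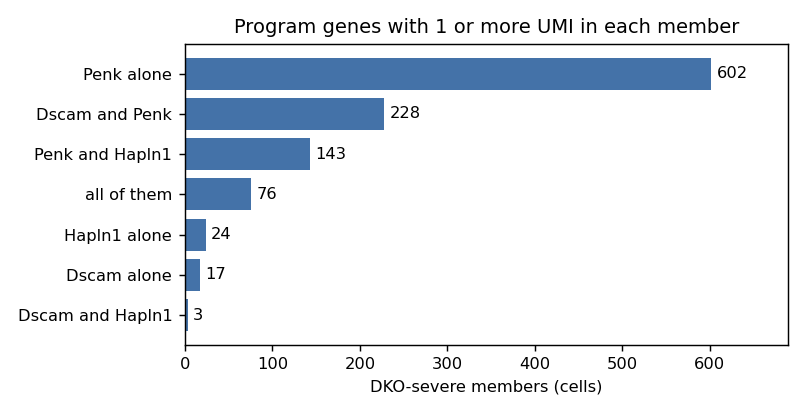
Number of DKO-severe members (x axis, cells) that carried each combination of *Dscam*, *Penk* and *Hapln1* UMIs (rows). Members with *Penk* alone are the longest bar at 602 cells, and 76 cells carried all 3 genes.

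The WT cells that met the rule carried the 3 genes in other proportions. Of these 29 cells, 19 had *Dscam* (65.5%, 595 CPM), 15 had *Penk* (51.7%, 355 CPM) and 1 had *Hapln1*. Their *Ikzf2* level was 2487 CPM and *Tnfrsf9* 153 CPM, while *Ralyl* was at 161 CPM and *Cntn5* had no UMI. *Foxp3* was in 7 of the 29 before thinning (24.1%). *Dscam* thus took the larger share of WT cells and *Penk* that of DKO-severe members.

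The name Treg-like was checked against Treg genes and held for some members only. *Foxp3* (chrX:7573644-7595245) was found in 347 of 1093 members before thinning (31.7%) and in 176 of 1045 at equal depth (16.8%, 14.6 to 19.3). The background for that share was taken from Cd8-gated DKO-severe cells, which should lack *Foxp3* and had a UMI in 0.901% of 1554 cells (0.493 to 1.51) at a median of 9310 UMIs. Most members therefore had no *Foxp3* UMI at this depth. The comparison populations were DKO-severe cells chosen for a *Foxp3* UMI and no program UMI (117 cells), DKO-severe cells chosen for 3 or more *Cntn5* UMIs and no program UMI (535 cells), and WT cells chosen for a *Foxp3* UMI and no program UMI (124 cells). At equal depth 62.9% of the DKO-severe and 77.0% of the WT *Foxp3*-chosen cells still had a *Foxp3* UMI, which shows how many cells chosen for a UMI keep one after thinning.

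*Ikzf2* (Helios, chr1:69531214-69687245), a factor of thymic Tregs, was at 2116 CPM in members, 1387 in the DKO-severe *Foxp3*-chosen cells, 601 in the *Cntn5*-chosen cells and 1784 in the WT *Foxp3*-chosen cells. *Tnfrsf9* (4-1BB, chr4:150914562-150946102), a costimulatory receptor of activated T cells, was at 305, 137, 63.8 and 55.3 CPM in the same order. Both were thus higher in members than in all 3 comparison populations. *Il2ra*, the high-affinity chain of the IL-2 receptor, went the other way, with 110 CPM in members against 236 in DKO-severe and 515 in WT *Foxp3*-chosen cells. *Ctla4*, an inhibitory receptor, was at 378 CPM in members against 581, 420 and 429. *Nrp1*, a semaphorin receptor, was at 198 CPM in members and lowest, at 108, in the DKO-severe *Foxp3*-chosen cells. *Lrrc32* (GARP, which displays latent TGF-β on Tregs) was at 1.4 CPM in members against 63.4 in WT *Foxp3*-chosen cells, and *Gpr83* at 1.3 CPM against 45.8. *Cd4* had a UMI in 875 of the 1093 members (80.1%) and in 58.6% at equal depth.

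**Figure D2:**
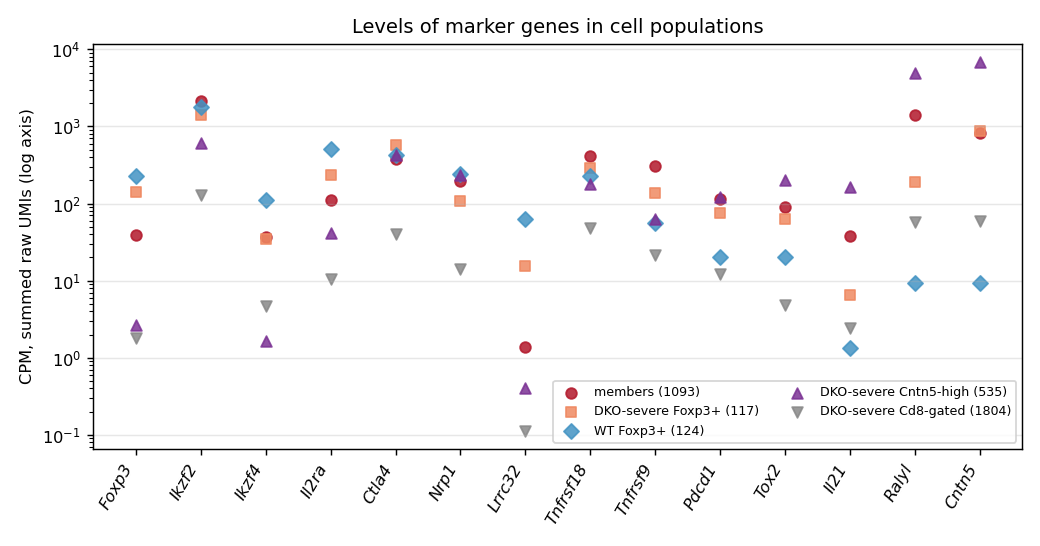
Level of marker genes (x axis) as CPM of summed UMIs (y axis, log scale) in members, the 3 comparison populations and Cd8-gated DKO-severe cells (symbols, with the number of cells in the legend). *Tnfrsf9* was highest in members at 305 CPM, while *Foxp3* stood at 38.8 CPM in members against 141 and 228 CPM in the DKO-severe and WT *Foxp3*-chosen cells.

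Over the gate as a whole *Foxp3*, *Tnfrsf9* and *Ikzf2* were higher in cells with more of the program. Among DKO-severe Cd3-positive Cd8-negative cells at equal depth, *Foxp3* was found in 3.67% of 2315 cells with no program UMI, 9.65% of 425 with 1 to 2, 13.3% of 195 with 3 to 4, 17.4% of 258 with 5 to 9 and 20.2% of 382 with 10 or more. *Tnfrsf9* was found in 16.7%, 31.3%, 49.7%, 50.4% and 67.3% of the same cells, so both genes had a larger share of cells in each next class, by little between the third and the fourth for *Tnfrsf9*. *Ikzf2* stood at 540, 1149, 2205, 2104 and 2989 CPM, with 2 close values in the middle of the range. *Ralyl*, an RNA-binding protein gene known from neurons, showed no such order, with UMIs in 44.9%, 60.5%, 51.3%, 51.6% and 42.7% of cells. By kind of member, *Foxp3* was in 106 of 473 members with *Dscam* or *Hapln1* (22.4%, 18.7 to 26.4) and in 70 of 572 with *Penk* alone (12.2%, 9.67 to 15.2). *Tnfrsf9* was in 71.7% and 41.1% of these members and *Ralyl* in 33.0% and 63.3%.

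Members differed among themselves in *Ikzf2* and *Ralyl*. Spearman's rho between both genes was -0.53 over the 1045 members at equal depth, all from 1 library. A cut at 5 thinned UMIs of each gene, chosen after the values were seen, gave 532 members high in *Ikzf2* and low in *Ralyl* (50.9%) and 268 high in *Ralyl* and low in *Ikzf2* (25.6%). A further 102 were high in both and 143 low in both. These classes are ranges and not types, as 138 members had 4 or 5 UMIs of either gene. Median depth before thinning was 11523 UMIs in the *Ikzf2*-high and 10142.5 in the *Ralyl*-high class.

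**Figure D3:**
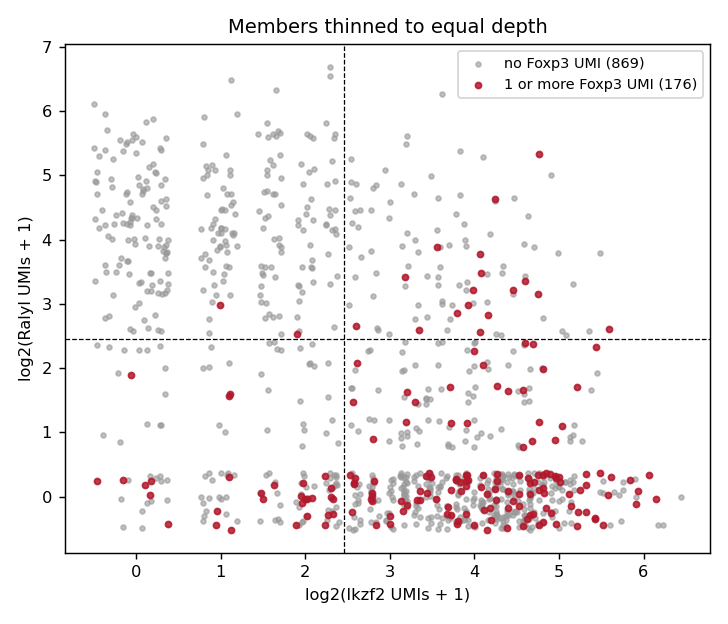
*Ikzf2* (x axis) against *Ralyl* (y axis) as log2 of thinned UMIs plus 1 for the 1045 members, with UMIs shifted at random by up to 0.3 to part the points and coloured by *Foxp3*. Dashed lines mark the cut between 4 and 5 UMIs, and of the 268 members with high *Ralyl* and low *Ikzf2*, 2 had *Foxp3*.

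*Foxp3* was found in 126 of the 532 *Ikzf2*-high members (23.7%, 20.1 to 27.5) and in 2 of the 268 *Ralyl*-high members (0.746%, 0.0905 to 2.67). The latter share was at that of the Cd8-gated cells and is read as background. Treg genes ran in both directions. *Tnfrsf9* was found in 76.3% of *Ikzf2*-high and 19.4% of *Ralyl*-high members, *Il1r2*, a decoy receptor for IL-1, in 34.02% and 7.46%, and *Ccr8*, a chemokine receptor of tissue Tregs, in 18.98% and 1.87%. *Itgae* (CD103, an integrin that binds E-cadherin) was in 22.0% and 0.746%, and *Ikzf4* (Eos, a partner of FOXP3) in 25.9% and 1.87%. *Il2ra* was in 33.6% (29.6 to 37.8) and 22.0% (17.2 to 27.5). The other way ran *Nrp1*, in 28.8% of *Ikzf2*-high and 72.8% of *Ralyl*-high members, *Lag3*, an inhibitory receptor that binds MHC class II, in 37.4% and 74.6%, and *Havcr2* (TIM-3, also an inhibitory receptor), in 13.3% and 36.9%. *Tigit* was in 23.9% and 26.5% and *Icos*, a costimulatory receptor, in 76.9% and 83.2%. The *Ralyl*-high members carried *Dlg2*, a synaptic scaffold gene, in 70.1% against 10.7%, and *Cntn5*, a contactin of neurons, in 33.2% against 3.38%. They also carried *Il21*, the cytokine of T follicular helper (Tfh) cells, in 38.1% against 0.752%, and *Cd40lg*, the helper ligand for B cells, in 39.2% against 9.96%. Other Tfh genes ran in both directions. *Cxcr5*, which guides cells into B cell follicles, was in 3.73% of *Ralyl*-high and 13.0% of *Ikzf2*-high members. The nuclear factor gene *Tox2* was in 22.4% and 27.6%. By contrast *Pdcd1* was in 47.0% of *Ralyl*-high and 35.7% of *Ikzf2*-high members, *Cd200* in 57.8% and 29.9% and *Angptl2* in 24.6% and 1.88%. Chemokine genes were also more frequent in *Ralyl*-high members, with *Ccl3* in 41.4% against 2.44% and *Ccl5* in 60.1% against 27.8%. *Cd4* was in 84.7% of *Ralyl*-high and 46.4% of *Ikzf2*-high members. *Ctla4* was close in both, at 78.4% (72.9 to 83.1) and 74.4% (70.5 to 78.1).

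The program genes themselves chose the members, so a member without *Dscam* and *Hapln1* had to carry *Penk*, and their shares by class are a description. *Penk* was in 91.9% of *Ikzf2*-high (89.3 to 94.1) and 93.3% of *Ralyl*-high members (89.6 to 96.0). *Dscam* was in 32.9% (28.9 to 37.1) and 1.87% (0.608 to 4.30), and *Hapln1* in 23.7% (20.1 to 27.5) and 4.48% (2.33 to 7.69). *Dscam* in the *Ralyl*-high members was at the 1.67% of Cd8-gated DKO-severe cells, in which *Penk* was in 5.41% and *Hapln1* in 0.450%. Transcripts of other cell types also differed between the classes: *Igkc*, of B cells, had a UMI in 84.6% of *Ikzf2*-high and 29.1% of *Ralyl*-high members, and *Cd74*, of antigen-presenting cells, in 68.0% and 14.2%. Their part in the other differences was not tested.

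**Figure D4:**
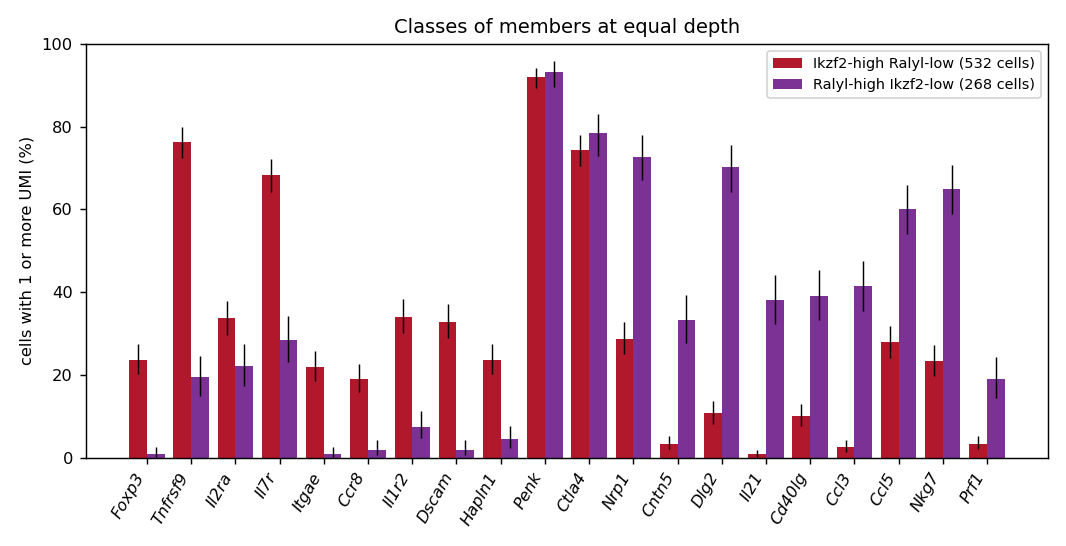
Share of members with 1 or more UMI (y axis, percent, after thinning) of each gene (x axis) in the *Ikzf2*-high *Ralyl*-low class (532 cells) and the *Ralyl*-high *Ikzf2*-low class (268 cells), with exact 95% binomial intervals as error bars. *Dscam* was in 32.9% and 1.87%, and *Penk*, which the rule required of members without *Dscam* and *Hapln1*, in 91.9% and 93.3%.

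Members with and without a *Foxp3* UMI were compared at equal depth (176 and 869 cells), where a gene was called when its pooled CPM differed by more than 2-fold. Of the 6368 genes tested 39 were higher (0.612%) and 90 lower (1.41%) in members with *Foxp3*, and the median log2 ratio of all tested genes was 0.02. With another random seed for the thinning 34 of 6357 were higher and 89 lower, and 73 of the 129 calls recurred. The ratios given are from the main thinning. *Itgae* was higher by a log2 ratio of 1.55 (1.23 to 1.87) and *Frmd5*, a FERM domain gene, by 2.06 (1.76 to 2.36). *Gphn*, which encodes the scaffold protein gephyrin, stood at 1.16, and the calcium channel gene *Ryr2* and the glutamate receptor gene *Grin2a* at 1.56 and 1.71, with 29.1% and 33.3% of their *Foxp3*-positive UMIs in 1 cell each. *Pld1*, a phospholipase, was at 1.75, *Wdpcp*, a gene of cilia formation, at 1.68, *Amph* (amphiphysin) at 1.64, *Neb* (nebulin) at 1.32 and *Sorcs1*, a sortilin receptor, at 1.29 with 33.5% of its UMIs in 1 cell. The core Treg list had 3 of 13 tested genes higher and none lower, with a median of 0.34. The 3 were *Itgae*, *Ikzf4* at 1.04 (0.59 to 1.47) and *Il2ra* at 1.03 (0.77 to 1.29), while *Tnfrsf9* stood at 0.99 (0.84 to 1.14) and *Ikzf2* at 0.81 (0.75 to 0.87). *Nrp1* was at -0.59.

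The genes lower in members with *Foxp3* included those of the *Ralyl*-high class. *Ralyl* itself (chr3:13471655-14182287) was at 291 CPM with and 1802 CPM without *Foxp3*, a log2 ratio of -2.63 (-2.82 to -2.45). *Cntn5* (chr9:9660891-10904775) stood at -3.11, *Epha3*, an ephrin receptor, at -3.88 on 4 UMIs, *Dlg2* at -2.15 and *Pdzrn3*, a ubiquitin ligase, at -2.96. The list of neuronal adhesion genes had 5 of 6 tested genes lower, with a median of -2.39. *Scg2*, a secretogranin of secretory granules, had no UMI in members with *Foxp3* and 258 without, a log2 ratio of at most -4.12 with 3 UMIs as the floor. *Il21* was at -2.72 (-4.05 to -1.66), *Cd40lg* at -1.83, and *Spp1* (osteopontin) at -3.96, *Igfbp7* at -3.67 and *Gm28494* at -3.84. *Ccl3* was at -4.47 (-5.06 to -3.94). *Ccl4* was at -2.54, but 49.8% of its UMIs in members with *Foxp3* came from 1 cell, and the sign turned to 1.33 among members with no *Ralyl* or *Cntn5* UMI and to 2.74 among members with *Dscam* or *Hapln1*. Without thinning *Foxp3* was also called on raw counts, which put 347 members with and 746 without it in the comparison. There 6 genes were higher and 56 lower in members with *Foxp3*, in place of 39 and 90, so that most calls on the higher side were lost. In pairs of nearest depth, also split on raw counts, 14 were higher and 46 lower. At equal depth among members with no *Ralyl* or *Cntn5* UMI 7 were higher and 26 lower, of 3915 genes tested there.

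Granulocyte RNA led the next comparison, with the DKO-severe *Foxp3*-chosen cells, and sat in few members. The granulocyte list summed to 6662 CPM in members, of which 98.5% lay in 19 cells with 100 or more UMIs of it. The same sum was 186 CPM in the DKO-severe *Foxp3*-chosen cells, 3650 in the *Cntn5*-chosen and 108 in the WT *Foxp3*-chosen cells. The B lineage list summed to 845, 439, 755 and 615 CPM, the monocyte list to 1188, 584, 765 and 376 CPM, and the red cell and platelet list to 379, 2512, 503 and 17.5 CPM, in the same order. In members all 10 granulocyte, all 10 B lineage and all 10 monocyte genes had a UMI, and *Ppbp*, of platelets, had none. The granulocyte list had 7 of 7 tested genes higher against the DKO-severe *Foxp3*-chosen and WT cells and 3 of 7 against the *Cntn5*-chosen cells, where 1.9%, 9.22% and 2.6% of all tested genes were higher. In members with *Foxp3* 4 of 6 were lower at equal depth, but this direction turned without thinning, where *Foxp3* was called on raw counts. The list then summed to 9018 CPM in members with *Foxp3* and 5319 in those without, and *Camp*, *Ltf*, *Ngp*, *S100a8* and *S100a9* stood at log2 ratios of 0.71 to 1.16. The B lineage list had 2 of 6 higher and 0 lower against the DKO-severe *Foxp3*-chosen cells, 3 of 5 higher and 1 lower against WT, and 0 of 7 higher and 2 lower against the *Cntn5*-chosen cells (median -0.39). The monocyte list had 1, 4 and 1 of 4 higher and none lower in the same comparisons, and 2 of 4 lower in members with *Foxp3*. Before thinning 482 of the 1093 members (44.1%) held a UMI of *Cd79a*, *Ms4a1*, *Lyz2*, *S100a8* or *Hbb-bs*. This share was 39.3%, 33.3% and 26.6% in the DKO-severe *Foxp3*-chosen, *Cntn5*-chosen and WT *Foxp3*-chosen cells, which were shallower. The highest 6% of doublet scores held 78 members (7.14%), against 4.27%, 3.74% and 3.23% of cells in the same order. Whether such cells are doublets was not tested.

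Against the DKO-severe *Foxp3*-chosen cells, members had more RNA of granulocyte genes, of *Ralyl* and *Dlg2* and of receptors such as *Il1r2* and *Tnfrsf9*, and less of *S1pr1*, *Bcl2* and *Il2ra*. The same members enter this comparison and the next ones. Of 6419 genes tested 122 were higher (1.9%) and 56 lower (0.872%), with a median log2 ratio of 0.04 over all tested genes. Without cells that had a UMI of other cell types 353 genes were called in place of 178. The largest ratios were those of granulocyte genes, namely *Ngp* at 6.97, *Camp* at 6.06, *Lcn2* at 5.52, *Ltf* at 5.06, *S100a8* at 5.05 and *S100a9* at 4.84, with 98.5% of the list's UMIs in the 19 cells above. *Retnlg*, of granulocytes, had no UMI in the comparison cells and a ratio of at least 4.07, which turned to -0.93 against comparison cells with a program sum below 3. *Cacna1d*, a calcium channel gene, was at 112 CPM against 4.8, a log2 ratio of 4.54 (3.41 to 5.99), with no more than 1.82% of its UMIs in any member. *Spp1* was at 4.21 and *Sorcs1* at 4.73 with a wide interval (3.83 to 11.6), because the comparison cells had 1 UMI.

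Receptors and nuclear factors of stimulated T cells were among the genes that were higher. *Il1r2* was at 1.69 (1.24 to 2.18), *Nr4a2*, an orphan nuclear receptor induced through the T cell receptor, at 1.56 (1.11 to 2.04), and *Tnip3*, an inhibitor of NF-κB signalling, at 1.57. *Tnfrsf9* was at 1.16 (0.94 to 1.39), or 1.54 when only members with a *Foxp3* UMI were used, and *Havcr2* at 1.19, which turned to -0.25 among members with *Dscam* or *Hapln1*. *Itgae* was at 1.08 and *Cd83* at 1.71. The TNF receptor and ligand list nevertheless had 1 of 14 tested genes higher (median 0.32), the effector Treg list 3 of 14 (median 0.27), the T cell receptor response list 2 of 13 (median -0.06) and the core Treg list 2 of 13 higher and 1 lower (median 0.17). *Ralyl* was at 2.90 (2.71 to 3.09) and *Dlg2* at 2.82. *Epha3* was at 2.95, with 87.5% of its 8 comparison UMIs in 1 cell. *Cntn5* was at -0.06, with 42.9% of its comparison UMIs in 1 cell, and at 1.19 without cells that had a UMI of other cell types. *Il21* was at 2.55, *Ccl5* at 2.15 and *Nkg7*, a granule protein gene, at 1.76. Among members with *Dscam* or *Hapln1* the last of these stood at -0.28 and *Ccl5* at -0.0023, so neither was higher in those members.

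Fewer genes were lower in members than higher, and *S1pr1*, *Bcl2* and *Il2ra* were among the lower ones. The naive list had 2 of 10 tested genes lower and none above 0, with a median of -0.71, where 0.872% of all tested genes were lower. On the list was *S1pr1*, a receptor for exit from lymph nodes, at -1.07 (-1.32 to -0.82). *Camk4*, a calmodulin-dependent kinase, was at -1.59, *Bcl2*, which protects cells from apoptosis, at -1.36 and *Grap2* (Gads, an adaptor of the T cell receptor) at -1.77. *Ppm1l*, a phosphatase, stood at -2.72 and *Fgf13* at -2.33, and *Znrf3*, *St8sia6*, *Gm2682* and *4933406I18Rik* at -1.72, -1.80, -1.38 and -1.65. *Il2ra* was at -1.10 (-1.28 to -0.92).

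Against the *Cntn5*-chosen cells, members had more *Foxp3*, *Itgae*, *Prf1*, *Gzmb* and *Ccl3* to *Ccl5* RNA and less *Il21* RNA. Of 6470 genes tested 168 were higher (2.6%) and 125 lower (1.93%), with a median of 0.01, and among members with no *Ralyl* or *Cntn5* UMI 449 were called in place of 293. *Itgae* was at 5.20 (4.15 to 6.51), *Prf1* (perforin) at 4.82, *Gzmb* (granzyme B) at 4.29, *Ccl3* at 4.55, *Ccl4* at 4.48 and *Ccl5* at 3.62. *Car2*, a carbonic anhydrase, was at 4.25, *Cep112* at 4.17 and *Cobl*, an actin nucleator, at 3.78. *Foxp3* was at 3.86 (3.08 to 4.78), from 38.8 CPM in members and 2.7 in the *Cntn5*-chosen cells. The core Treg list had 5 of 13 tested genes higher and none lower (median 0.42), which besides *Foxp3* and *Itgae* were *Ikzf2* at 1.82, *Il2ra* at 1.40 and *Tigit* at 1.05. The TNF list had 4 of 14 higher and 2 lower (median 0.21), with *Tnfrsf8* (CD30) at 3.41, *Tnfrsf9* at 2.26, *Tnfrsf18* at 1.20, *Cd40lg* at -1.48 and *Tnfsf8*, the ligand of CD30, at -1.41. The effector Treg list had 3 of 12 higher and 1 lower (median 0.22), namely *Gzmb*, *Havcr2* at 3.38, *Il1r2* and, on the lower side, *Maf* at -1.07. The cell cycle list had 7 of 11 higher (median 1.30), with *Mki67*, a marker of dividing cells, at 1.30 and the nucleotide reductase gene *Rrm2* at 1.90. Before thinning *Mki67* or *Top2a* had a UMI in 411 of the 1093 members (37.6%). The share was 23.4% in the *Cntn5*-chosen, 23.9% in the DKO-severe *Foxp3*-chosen and 10.5% in the WT *Foxp3*-chosen cells, all of them shallower.

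The Tfh list had 7 of 15 tested genes lower and none higher, with a median of -0.9993. *Il21* was at 37.8 CPM in members and 162 in the *Cntn5*-chosen cells (-2.10, -2.26 to -1.94), *Pou2af1*, a coactivator, at -1.85, *Tox2* at -1.18, *Slamf6* at -1.11 and *Cxcr5* just inside 2-fold at -0.95. The neuronal adhesion list had 4 of 5 lower (median -1.82). They included *Ntng1* (netrin G1) at -3.19, *Cntnap2*, a neurexin relative, at -2.96 and *Epha3* at -1.34. *Flrt2*, a membrane protein of axon guidance, was at -3.01, *Kirrel3* at -2.65, the cadherin gene *Cdh2* at -2.97 and *A330093E20Rik*, *Vwde*, *Zfp536*, *Meis2* and *Epb41l5* between -3.43 and -2.67. *Ralyl* was at -1.82. Even so, before thinning 139 of the 1093 members (12.7%) themselves had 3 or more *Cntn5* UMIs and 221 (20.2%) had *Il21*. At equal depth *Il21* was in 3 of 527 members without *Ralyl* and in 135 of 518 with it.

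Against the WT *Foxp3*-chosen cells, which came from the other mouse at a median of 4895.5 UMIs, the most genes were called. Of 6441 genes tested 594 were higher (9.22%) and 340 lower (5.28%), with a median of 0.08. When mitochondrial, ribosomal, immunoglobulin, haemoglobin and T cell receptor genes were left out of the scaling, 569 were higher and 544 lower, so that the share of calls that were higher went from 63.6% to 51.1% and the median of all tested genes from 0.08 to -0.06. *Ralyl* was at 1404 CPM in members and 9.4 in WT cells (7.22, 6.17 to 8.53), and *Cntn5* at 830 and 9.4 CPM (6.46). All 6 tested neuronal adhesion genes were higher, with a median of 4.25. *Ccl4* was at 5.80, *Ccl3* at 6.69 on 2 WT UMIs (5.43 to 10.3), and *Spp1*, with no WT UMI, at 5.69 or more. *Ngp*, *Camp*, *S100a8* and *S100a9* were between 5.65 and 6.71 and *Lcn2* at 6.65 with 1 WT UMI counted as the floor of 3, and the few members with granulocyte RNA held them. Without cells that had a UMI of other cell types *S100a9* turned to -0.65.

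The effector Treg list had 8 of 12 tested genes higher than in WT (median 1.41). *Lag3* was at 164 CPM in members and 5.4 in WT cells (4.92, 3.57 to 6.80), *Il1r2* at 3.69, *Itgb8*, an integrin chain that activates TGF-β, at 1.98 and *Maf* at 1.62. *Pdcd1* (PD-1) was at 2.51 (1.79 to 3.35) and *Tnfrsf9* at 2.47 (2.02 to 2.95). The TNF list had 5 of 15 higher and 3 lower (median 0.50), the latter including *Lta* at -3.10. The cell cycle list had 8 of 11 higher (median 1.53), although 90.7% of the WT *Mki67* UMIs came from 1 cell, and the Tfh list 4 of 12 (median 0.91). The core Treg list had 2 of 15 higher, among them *Tigit* at 2.69, and 4 lower (median -0.10), namely *Il2ra* at -2.23 (-2.39 to -2.06), *Ikzf4* at -1.57, *Socs2* at -2.80 and *Swap70* at -2.15. *Ikzf2* was at 0.25 and *Ctla4* at -0.18. The naive list had 9 of 11 lower (median -1.82), with *Lef1*, a Wnt-pathway factor of naive T cells, at -2.17 and *Bach2*, a repressor of effector genes, at -2.04. *Igfbp4* was at -3.83, the histone deacetylase gene *Hdac9* at -3.68 and *Ppm1l*, *St8sia6*, *Fgf13*, *Camk4*, *Actn1*, *Grap2* and *Itga6* between -3.84 and -3.12. *Jchain*, of plasma cells, was at -3.40, with 98.1% of its WT UMIs in 1 cell.

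Other genes of the pathways of *Penk*, *Hapln1* and *Dscam* showed few calls. The program genes were not tested, and the enkephalin and opioid list gave 3 tested genes in each comparison, *Pcsk1*, *Oprm1* and *Dpp3* against the DKO-severe *Foxp3*-chosen cells with none called (median 0.40). *Pcsk1*, a protease that cleaves prohormones such as proenkephalin, was at 78.3 CPM in members, 284 in the *Cntn5*-chosen cells (-1.86, -1.97 to -1.74) and had no UMI in the WT *Foxp3*-chosen cells. The hyaluronan and proteoglycan list gave 1 tested gene, the hyaluronan receptor *Cd44*, and the *Dscam* family and partner list 2, *Rock1* and *Uba6*, none past 2-fold in any comparison, with medians of 0.59 and 0.01 against the DKO-severe *Foxp3*-chosen cells. The DNA methylation list, which holds the *Tet* and *Dnmt* genes, had 0 of 8 called against those cells (median -0.05). It had 1 of 8 higher against WT (median 0.02) and against the *Cntn5*-chosen cells (median 0.16). Each time this was *Uhrf1*, a cofactor of maintenance methylation, at 1.36 and 1.46. The counts are per gene, so they cannot show whether the floxed parts of *Tet2* and *Tet3* were lost. By qPCR the study did not detect *Tet2* in DKO Treg cells or in Tfh cells of DKO-severe mice. The Th1, Th2 and Th17 list had 2 of 4 higher against the DKO-severe *Foxp3*-chosen, the *Cntn5*-chosen and the WT cells, where 1.9%, 2.6% and 9.22% of all tested genes were higher, and 3 of 6 lower in members with *Foxp3*, where 1.41% were lower. Those higher against the DKO-severe *Foxp3*-chosen cells were *Ccl5* and *Nkg7*, which stood at -0.0023 and -0.28 among members with *Dscam* or *Hapln1*. The list of CD8, cytotoxic and innate-like T cells had 1 tested gene, *Prf1*, higher in each of these 3 comparisons, and none of the red cell and platelet genes passed the expression filter.

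Few T cell receptor β variable segments led the members. A leading *Trbv* segment could be named in 468 members, and *Trbv12-2* led in 197 of them (42.1%, 37.6 to 46.7) and *Trbv13-2* in 101 (21.6%, 17.9 to 25.6). The effective number of segments (the inverse sum of squared shares) was 4.23, against 4.08 in 38 DKO-severe *Foxp3*-chosen cells, 3.50 in 213 *Cntn5*-chosen cells, 8.76 in 470 other DKO-severe and 12.5 in 641 WT Cd3-positive Cd8-negative cells. Members were split here by *Foxp3* before thinning (347 with and 746 without), and a leading segment was named in 48.4% and 40.2% of them. In members with and without *Foxp3*, *Trbv12-2* led 45.8% of 168 (38.1 to 53.7) and 40% of 300 cells (34.4 to 45.8), *Trbv13-2* 12.5% (7.91 to 18.5) and 26.7% (21.7 to 32.1), and *Trbv15* 9.52% (5.54 to 15.0) and 3% (1.38 to 5.62). The intervals overlapped for *Trbv12-2* and *Trbv15*, by little for the latter, and not for *Trbv13-2*. They count cells of 1 mouse as independent, so their overlap is no test of a difference. *Trbv12-2* led 54.0% of 248 *Ikzf2*-high members (47.6 to 60.4) and 23.7% of 93 *Ralyl*-high members (15.5 to 33.6), whereas *Trbv13-2* led 9.68% (6.30 to 14.1) and 51.6% (41.0 to 62.1). In the *Cntn5*-chosen cells *Trbv12-2* led 33.8% and *Trbv13-2* 40.4%.

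**Figure D5:**
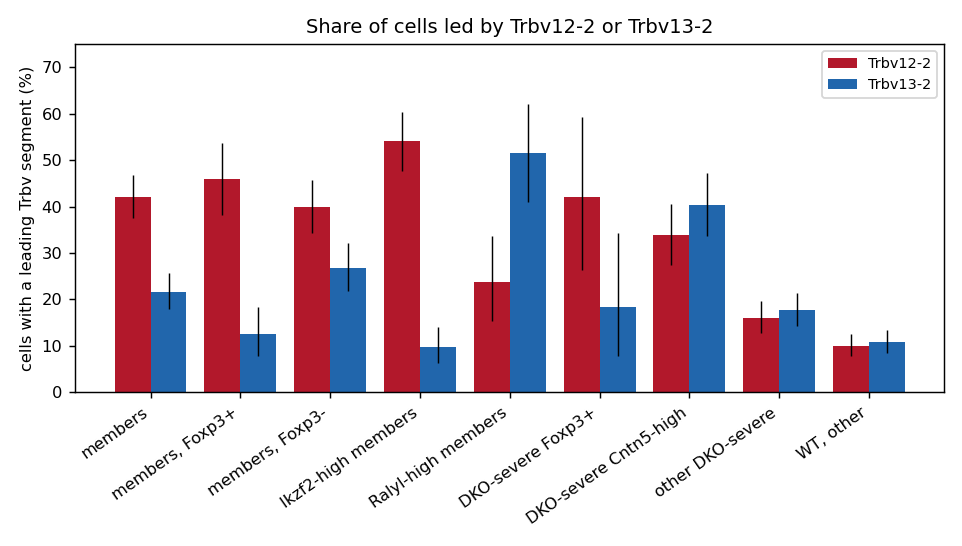
Share of cells with a leading *Trbv* segment (y axis, percent) that *Trbv12-2* and *Trbv13-2* took in members, subsets of members and other populations (x axis), with exact 95% binomial intervals as error bars. *Trbv12-2* led 54.0% of *Ikzf2*-high and 23.7% of *Ralyl*-high members, against 9.98% of other WT cells. Members with and without *Foxp3* were split before thinning.

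Among α segments the effective number was 16.4 over 230 members. It was 9.8 in 14 DKO-severe *Foxp3*-chosen cells and 2.84 in 89 *Cntn5*-chosen cells. In other Cd3-positive Cd8-negative cells it was 31.2 over 253 DKO-severe and 34.8 over 629 WT cells. *Trav7-4* led 25 of 133 *Ikzf2*-high members (18.8%, 12.5 to 26.5) and *Trav6-5* led 20 (15.0%). The *Ralyl*-high members were led by *Trav8d-1*, in 11 of 39 (28.2%, 15.0 to 44.9), and *Trav9-2*, in 6 (15.4%), the 2 segments that also led the *Cntn5*-chosen cells, in 33 and 41 of 89. Segments were read from gene counts and not from sequenced receptors, so cells that share a segment need not share a receptor, and homologous segments can share reads.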

How the data were processed

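TCRβ-positive cells of 1 WT and 1 DKO-severe mouse were profiled, and the UMI counts per gene and barcode were deposited by the authors as made with Cell Ranger 7.1.0 and mm10, with hashtag counts beside them. The submitters' processing notes also name Seurat. The members, gene lists and tests were chosen with earlier results of these data known.

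Barcodes were kept from 500 genes upward if mitochondrial UMIs did not exceed 10%. Scrublet (scanpy 1.11.5) marked 0 WT and 0 DKO-severe cells at its automatic threshold, so doublets were left in and the highest 6% of scores left out as an alternative. Summed counts were scaled to 1000000 (CPM), and a population with under 3 UMIs was set to that floor. Genes with a mean of 20 or more CPM and 100 or more UMIs were tested and called past 2-fold. No p-value was computed, as cells are not replicates. Shares of cells were taken after thinning to 4900 UMIs, about the 10th percentile of depth in the cells compared, with exact 95% intervals. All barcodes together held 45294779 WT and 69692053 DKO-severe UMIs, but precision depends on the populations compared. The DKO-severe *Foxp3*-chosen cells held 1242281 UMIs, the *Cntn5*-chosen 4874418 and the WT *Foxp3*-chosen 741621. After thinning the 176 members with *Foxp3* held 862400. Named genes were the 10 highest and 10 lowest by the interval bound nearest 0 in each comparison, plus genes of 18 lists, and 1 gene among them is not reported here. A leading T cell receptor segment was the one with the most UMIs in a cell, without ties, so a single UMI could name it. Alternatives were other rules, depths, scalings and filters, and 2 were added after the data were seen. Promoters were RefSeq, GRCm38.p6, and gene positions GENCODE vM21. Python 3.11.15, numpy 2.4.6, scipy 1.17.1, pandas 2.3.3 and matplotlib 3.10.9 were used.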

Additional observations from a re-analysis of the deposited data

How the results depend on the processing

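No paired analysis was possible because each genotype was 1 mouse and 1 library, and for the same reason no replicate could be left out. In place of 1093 members and 26.1% of the gate, 1220, 954 and 709 cells had a program sum of 2, 5 and 10 UMIs or more (29.2%, 22.8% and 16.9%). The rule kept 875 cells (30.3%) with *Cd4* required, 611 (23.9%) without cells that had a UMI of other cell types, 682 (21.7%) without cells that had *Mki67* or *Top2a* and 876 (23.7%) on thinned counts. The share of members with *Foxp3* was 19.9% without dividing cells, 24.7% with no *Ralyl* or *Cntn5* UMI, 22.4% with *Dscam* or *Hapln1*, 31.7% without thinning and 3.64% at 2 or more *Foxp3* UMIs. The effective number of *Trbv* segments moved by less than its interval.

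Against the DKO-severe *Foxp3*-chosen cells the calls went from 178 to 353 without cells that had a UMI of other cell types, 271 without dividing cells, 268 by the mean of per-cell CPM, and 82 and 631 at mean CPM minima of 50 and 5. Against the *Cntn5*-chosen cells they went from 293 to 140 and 742 at those minima and to 449 among members with no *Ralyl* or *Cntn5* UMI. Against WT they went from 934 to 475 and 1872 at those minima. Between members with and without *Foxp3* they went from 129 to 62 without thinning, 60 in pairs of nearest depth, 511 at 2 or more *Foxp3* UMIs, 55 at a minimum of 50, 33 with no *Ralyl* or *Cntn5* UMI and 52 with *Dscam* or *Hapln1*. Fewer or more genes were tested at both minima, and 3915 and 4014 in place of 6368 in the last 2 settings. *Foxp3* was called on raw counts without thinning and in pairs of nearest depth, which changed the groups compared. The cause of the other shifts was not tested.

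Of 9296 values of named genes 8841 stayed on their side of 2-fold, 250 moved past it and 171 fell short of it. A change of sign inside 2-fold was counted among the 8841. The other 34 changed sign where the main or the alternative value was past 2-fold. Against the DKO-severe *Foxp3*-chosen cells these were *Rrm2* at 1.08 with *Cd4* required, *Cntn5* at 1.19 and *Cntnap2* at 2.52 without cells that had a UMI of other cell types, *Lyz2* at -0.35 without dividing cells, *Retnlg* at -0.93 against cells with a sum below 3, and *Ccl5*, *Havcr2* and *Nkg7* at -0.0023, -0.25 and -0.28 with *Dscam* or *Hapln1*. Against the *Cntn5*-chosen cells they were *Retnlg* at -0.074 by per-cell CPM and *Dlg2* at -2.41 with no *Ralyl* or *Cntn5* UMI and -1.43 with *Dscam* or *Hapln1*. Against WT they were *S100a9* at -0.65 without cells that had a UMI of other cell types and *Cd40lg* at -1.05 with no *Ralyl* or *Cntn5* UMI. Between members with and without *Foxp3*, *Camp*, *Fcer1g*, *Ltf*, *Lyz2*, *Ngp*, *S100a8*, *S100a9* and *Top2a* turned to 0.71, 0.20, 1.16, 0.32, 0.76, 0.75, 0.78 and 0.035 without thinning. In pairs of nearest depth *Camp*, *Ngp*, *S100a8* and *S100a9* stood at 0.13, 0.17, 0.28 and 0.28, and at 2 or more *Foxp3* UMIs *Irf8* and *Tbx21* at 1.04 and 1.18. With no *Ralyl* or *Cntn5* UMI *Ccl4*, *Ccl5* and *Nkg7* stood at 1.33, 0.54 and 0.11, and with *Dscam* or *Hapln1* *Ccl4*, *Ccl5*, *Gzmb* and *Nkg7* at 2.74, 0.55, 1.64 and 0.64.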
